A study of Homo sapiens with 12 samples.

Results

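A set of 33 genes of cholesterol and fatty acid synthesis was followed in IMR90, a human cell line of fibroblasts from fetal lung. The members were given as a list of symbols, matched to the Ensembl gene identifiers of the deposited tables, and all 33 were found among 61541 identifiers. Of these, 32 passed the filter on low counts, which kept 12329 genes, and ABCG1 did not. The members were sorted by role into 7 genes of the mevalonate part of the pathway, 11 of the sterol ring, 5 regulators of SREBP, 3 of sterol transfer and efflux, and 7 of fatty acid synthesis.

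Per the title, the study asked what substrate stiffness does to the secreted factors and gene expression of lung fibroblasts made senescent by doxorubicin, an anthracycline that damages DNA. Polyadenylated RNA of wild-type IMR90 cells was sequenced in 4 groups of 3 libraries each: cells on a 2 kPa hydrogel with 100 nM doxorubicin, cells on plastic with 100 nM, cells on the 2 kPa hydrogel with 250 nM, and cells on plastic with 250 nM. All 12 libraries came from cells that received the drug for 24 hours and then grew for at least 8 days, in medium with fetal bovine serum, so no group shows these genes without the drug. The labels disagree: doses are in nM in the titles but in µM in the treatment protocol, and the soft substrate is a hydrogel in the design but a PDMS coating in the growth protocol. The labels do not say whether replicates were separate cultures, so p-values measure only the spread between these samples, which may be technical.

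Cholesterol is built in the cytosol and endoplasmic reticulum from acetyl-CoA, first through mevalonate to farnesyl diphosphate and squalene, then by closing and trimming the sterol ring. When sterols in the endoplasmic reticulum fall, SCAP escorts the SREBP factors to the Golgi for cleavage, and the freed part enters the nucleus and turns on genes of sterol and fatty acid synthesis. INSIG proteins hold SCAP back when sterols are plentiful, and many of the genes themselves are read by SREBP together with the factor NF-Y, which binds CCAAT boxes. Loaded sterol is exported by ABCA1 and ABCG1, which are targets of the LXR receptors.

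The total of expected counts, the RSEM estimates of reads per gene, lay between 2229069 and 2730309 in the 250 nM libraries and between 5887056 and 7351916 in the 100 nM libraries. Molecular identifiers appear in the file names of the 250 nM libraries alone, so the dose and the library set cannot be told apart. One library stood apart: replicate 1 of gel at 250 nM had a mean correlation of 0.845 with its own group in log2 CPM, against 0.895 to 0.958 in the other 11, and ribosomal protein genes took 8.21% of its counts, against 3.32% to 5.83%. Loci of the rDNA repeats took 13.2% of the counts of that library and 14.3% in replicate 1 of plastic at 100 nM, against 24.2% to 30.7% in the other 10. All 7 fibroblast markers were detected, with a summed level of 4550 to 5200 CPM on gel and 5930 to 7890 CPM on plastic at 100 nM, and of 2480 to 3250 CPM on gel and 5180 to 5870 CPM on plastic at 250 nM. Of 6 adipocyte markers 0 passed the filter, with a summed level of at most 5.29 CPM, and of 6 leukocyte markers 0 passed, with at most 3.31 CPM. Of 7 epithelial, 5 endothelial, and 5 pericyte and smooth muscle markers, 3, 1 and 3 passed, and the part of these markers in the results was not tested. Between substrates, fewer cells of a type and less RNA per cell cannot be told apart in such bulk samples.

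Levels between genes were compared in TPM, which is scaled for transcript length. FDPS was the highest member at 140.5 ± 89.5 TPM (SD over the 12 libraries), followed by ACAT2 at 75.1 ± 34.8, ACLY at 65.8 ± 20.2, SREBF1 at 47.9 ± 13.9 and FDFT1 at 41.8 ± 14.6 TPM. The ranges over libraries of each of these neighbours overlapped. At the low end stood TM7SF2 at 2.72 ± 2, ABCA1 at 2.43 ± 0.78 and ABCG1 at 0.324 ± 0.344 TPM.

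The summed level of the 18 mevalonate and sterol ring members was higher on gel than on plastic at both doses. At 100 nM it was 597, 750 and 860 CPM in gel libraries and 516, 536 and 507 CPM in plastic libraries. At 250 nM it was 1058, 1158 and 1149 CPM in gel libraries and 628, 737 and 736 CPM in plastic libraries. The 2 substrates did not overlap on this scale at either dose, and the narrowest gap lay between gel replicate 1 and plastic replicate 2 at 100 nM. The share of counts from mitochondrial genes separated the substrates too, with 9.62% to 10.01% on gel and 8.09% to 9.29% on plastic at 100 nM, and 6.81% to 9.31% on gel and 5.95% to 6.30% on plastic at 250 nM, and its part in the result was not tested. In TPM the same sums ran from 347.5 to 493.5 on gel and from 300.9 to 385 on plastic at 100 nM, where the substrates overlapped, and from 652 to 879 on gel and from 424 to 494.5 on plastic at 250 nM, where they did not. The 7 fatty acid members summed to 478, 555 and 591 CPM on gel and 423, 428 and 495 CPM on plastic at 100 nM, where the groups overlapped in part, and to a mean of 844 ± 37.1 CPM on gel and 684 ± 48.0 CPM on plastic at 250 nM (SD, n = 3 each), where they did not.

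**Figure D1:**
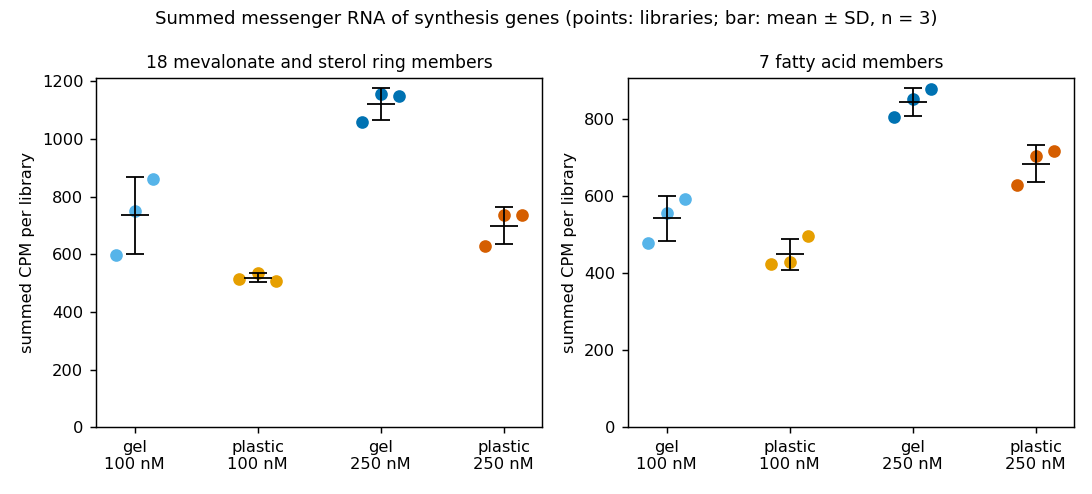
Summed CPM per library (vertical axes from 0) of the 18 mevalonate and sterol ring members (left) and the 7 fatty acid members (right) in the 4 groups; points are libraries, bars the mean ± SD, n = 3. On the left all gel libraries lie above all plastic libraries of the same dose; on the right they do so at 250 nM, while the lowest gel library at 100 nM, at 478 CPM, lies below the highest plastic library, at 495 CPM.

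Gene by gene, the rise on gel reached the threshold for 3 members, and only when both doses were averaged. In edgeR's quasi-likelihood test with Benjamini-Hochberg adjustment over all 12329 genes, called under an adjusted p of 0.05, HMGCS1, SQLE and SC5D rose in the mean of the within-dose differences. The share of all genes called up there was 0.276%, and 0.479% were called down, so 3 of 32 members stands beside 34 of 12329 genes. Of the 32, 26 had a positive averaged log2 change, with a median of 0.29, where the median of all genes was -0.01 and 49.3% were positive. At an unadjusted p under 0.05, 14 members were higher and 0 lower on gel, beside 5.75% and 6.76% of all genes. Of the 18 mevalonate and sterol ring members, 16 were positive, with a median of 0.70.

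Within a single dose 0 members passed the adjusted test. At 100 nM, 0.227% of all genes were called and 0.0730% of all genes were called up. There 21 of 32 members were positive with a median log2 change of 0.31, beside 48.9% of all genes and a median of -0.01. At an unadjusted p under 0.05, 8 members were higher on gel and 1 was lower, where the shares of all genes were 3.97% and 5.93%. In CPM, the 3 gel and 3 plastic libraries did not overlap for 9 members higher on gel and 2 lower, beside 9.62% and 9.38% of all genes. At 250 nM, 0.00811% of all genes were called. At that dose 27 of 32 members were positive with a median of 0.50, beside 48% of all genes and a median of -0.02. Here 14 members were higher and 0 lower at an unadjusted p under 0.05, beside 5.45% and 4.57% of all genes. In CPM, 15 higher and 0 lower did not overlap, beside 7.45% and 7.62%. DESeq2 called 2 members at 100 nM, HMGCS1 and SQLE, beside 158 of 12329 genes. At 250 nM DESeq2 called 3, HMGCS1, MVD and SQLE, beside 93 of 12329 genes.

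The contrasts at the 2 doses share no library, and they were set side by side. A total of 19 members, 59.4% of those tested, were higher on gel at both doses, where 24.9% of all genes were. In CPM, gel libraries lay above plastic libraries with no overlap at both doses for 6 members, HMGCS1, FDPS, SQLE, SC5D, DHCR7 and FASN. In that way 0 members lay below, and the shares of all genes were 1.24% above and 1.94% below. In TPM, the substrates overlapped for FDPS and FASN at 100 nM and for DHCR7 at 250 nM.

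**Figure D2:**
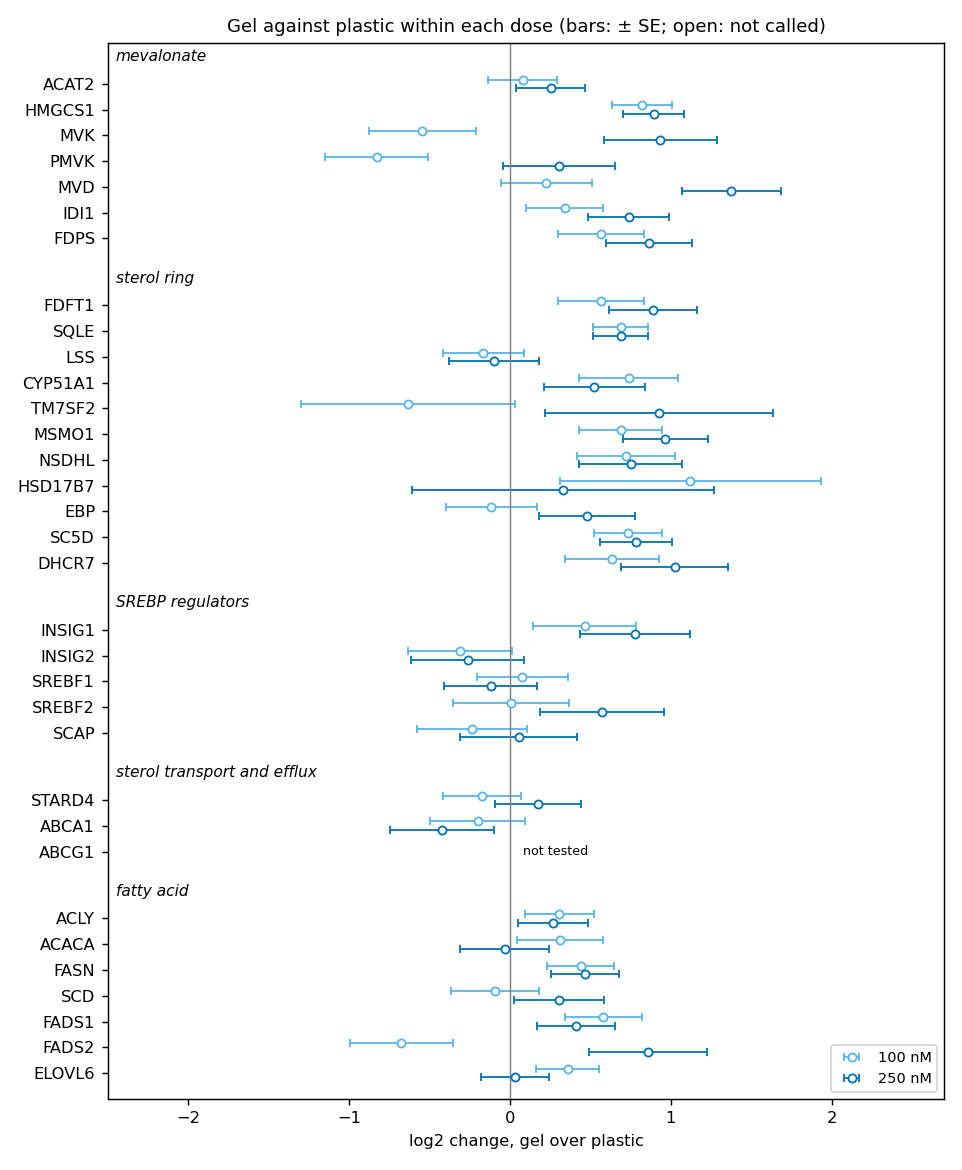
Log2 change of gel over plastic for each member within 100 nM (light blue) and within 250 nM (dark blue), with bars of ± SE; all points are open because 0 members were called within a dose, and ABCG1 was not tested. Most mevalonate and sterol ring points lie right of 0 at both doses, while the regulators and transport genes lie on both sides.

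ACAT2 and HMGCS1 act first and join acetyl-CoA units into HMG-CoA. HMGCS1 (ENSG00000112972, chromosome 5, 43289395 to 43313512, minus strand, GRCh38) encodes the cytosolic HMG-CoA synthase. At 100 nM, HMGCS1 had 55.7, 46.05 and 62.9 CPM on gel and 30.3, 31.8 and 31.03 CPM on plastic. At 250 nM, HMGCS1 had 81.95, 74.3 and 87.2 CPM on gel and 51.3, 36.1 and 43.6 CPM on plastic. Every gel library was above every plastic library of its dose, by a clear gap in each case. Averaged over doses HMGCS1 rose by a log2 change of 0.86 ± 0.13 (SE), 1.81-fold, with an adjusted p of 0.00792 in edgeR. The call held when each of the 12 libraries was left out in turn, with adjusted p of at most 0.0454, and was lost when log2(TPM + 1) was tested by limma-trend (adjusted p = 0.0592) and with TPM + 0.1 (adjusted p = 0.067). GENCODE 29 places an antisense transcript, AC114947.2, over 14.95% of the exonic bases of HMGCS1, and the strand setting of the counting is not given in the sources used here.

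ACAT2 encodes the cytosolic thiolase that joins acetyl-CoA units. At 100 nM, ACAT2 had 48.4, 63.6 and 84.6 CPM on gel and 58.7, 56.99 and 70.6 CPM on plastic. At 250 nM, ACAT2 had 210.5, 169 and 154 CPM on gel and 136, 159 and 153 CPM on plastic. The groups overlapped at both doses, and the averaged log2 change was 0.17 ± 0.15 with an adjusted p of 0.724 in edgeR. Exons of SOD2, SOD2-OT1 and TCP1 on the other strand cover 26.5%, 33.9% and 9.24% of the exonic bases of ACAT2, so its counts are uncertain without a strand setting.

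Further enzymes carry mevalonate on to isopentenyl and farnesyl diphosphate. MVK, mevalonate kinase, had 6.71, 4.81 and 5.13 CPM on gel and 10.7, 5.11 and 8.39 CPM on plastic at 100 nM. At 250 nM, MVK had 21.2, 11.6 and 13.9 CPM on gel and 7.04, 8.92 and 8.64 CPM on plastic. MVK was thus lower on gel in part of the libraries at the low dose and higher in all 3 gel libraries at the high dose. The log2 change was -0.54 ± 0.33 at 100 nM (adjusted p = 0.628) and 0.94 ± 0.35 at 250 nM (adjusted p = 0.373), both in edgeR. The difference between them, 1.48 ± 0.49, had an unadjusted p of 0.00904 and an adjusted p of 0.75.

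MVD, mevalonate diphosphate decarboxylase, had its gap between substrates at 250 nM, in CPM and not in TPM. At 100 nM, MVD had 5.99, 8.25 and 7.27 CPM on gel and 6.94, 4.49 and 6.97 CPM on plastic. At 250 nM, MVD had 20.8, 18.4 and 14.8 CPM on gel and 7.45, 7.51 and 5.89 CPM on plastic. In CPM gel and plastic overlapped at the low dose and lay far apart at the high dose. In TPM they overlapped at the high dose too, with 9.15 in gel replicate 2 and 11.84 in plastic replicate 2. MVD had only 15 to 63 expected counts per library. The log2 change was 0.23 ± 0.28 at 100 nM and 1.38 ± 0.31 at 250 nM, and their difference of 1.15 ± 0.42 had an unadjusted p of 0.0159 and an adjusted p of 0.75 in edgeR. The averaged change of 0.80 ± 0.21 missed the threshold (adjusted p = 0.0957). PMVK, phosphomevalonate kinase, was the mevalonate member with a negative averaged change, -0.26 ± 0.24 (adjusted p = 0.719), and IDI1, isopentenyl diphosphate isomerase, had 0.54 ± 0.17 (adjusted p = 0.185).

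FDPS makes farnesyl diphosphate, the branch point to sterols and to prenylated proteins. At 100 nM, FDPS had 50.2, 45.9 and 58.6 CPM on gel and 42.97, 32.8 and 28.7 CPM on plastic. At 250 nM, FDPS had 186, 102 and 104 CPM on gel and 54.2, 89.2 and 72.6 CPM on plastic. In CPM the gel libraries lay above the plastic ones at each dose. Replicate 1 of gel at 250 nM, the library that stands apart, was the highest of all 12. In TPM the substrates overlapped at 100 nM, with 98.4 in plastic replicate 1 and 85.3 in gel replicate 1. The averaged log2 change was 0.71 ± 0.19 (adjusted p = 0.101 in edgeR). FDPS has 8 annotated pseudogenes and shares 18.6% of its exonic bases with the antisense RUSC1-AS1, and how the counting split such reads is not given in the sources used here.

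Promoter windows of 250 bases before the RefSeq start were read for 28 of the 33 members (GRCh38.p14), 8 of which have more than 1 start and so more than 1 window. ABCG1, ACAT2, FASN, FDFT1 and SQLE had no entry. A CCAAT box on either strand was found in at least 1 window of 19 of the 28 members, 67.9%, and of 37% of 27305 genes. Counted by window, it was in 23 of 38 member windows, 60.5%, and in 32% of all 35116. It was found for 5 of 6 mevalonate members, 8 of 9 of the sterol ring, 2 of 5 regulators, 1 of 2 of transfer and efflux and 3 of 6 of fatty acid synthesis. The core of the sterol response element, TCACNCCAC on either strand, was found in SREBF2 alone among the members and in 1.09% of all genes. The E-box CACGTG, a palindrome, was found for 14.3% of the members and 7.73% of all genes, in ABCA1, INSIG1, SC5D and SCAP. These matches describe the letters in these windows and no binding was measured.

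Printed are the windows of HMGCS1 and SC5D, which rose on gel, of FDPS and MSMO1, which have several boxes, and of SREBF2, which holds both kinds of motif. HMGCS1 and SC5D have 2 windows each, and the one with more CCAAT boxes is shown for HMGCS1 and the one with the lower start for SC5D, where the numbers of boxes are equal. Each is written 5′ to 3′ on the strand of its gene, from RefSeq on GRCh38.p14, and ends at the base before the start. Capitals mark CCAAT, written ATTGG where it is on the other strand, and in SREBF2 also TCACCCCAC. The RefSeq start lies inside the gene as GENCODE 29 annotates it for all 5. The windows are chr5:43313413-43313662 (minus) for HMGCS1, chr1:155308616-155308865 (plus) for FDPS, chr4:165327419-165327668 (plus) for MSMO1, chr11:121292521-121292770 (plus) for SC5D and chr22:41832855-41833104 (plus) for SREBF2.
HMGCS1: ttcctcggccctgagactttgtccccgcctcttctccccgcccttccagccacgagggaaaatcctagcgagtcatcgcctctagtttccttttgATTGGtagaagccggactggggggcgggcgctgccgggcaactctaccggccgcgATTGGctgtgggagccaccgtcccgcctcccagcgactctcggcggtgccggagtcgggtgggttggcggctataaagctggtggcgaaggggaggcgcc
FDPS: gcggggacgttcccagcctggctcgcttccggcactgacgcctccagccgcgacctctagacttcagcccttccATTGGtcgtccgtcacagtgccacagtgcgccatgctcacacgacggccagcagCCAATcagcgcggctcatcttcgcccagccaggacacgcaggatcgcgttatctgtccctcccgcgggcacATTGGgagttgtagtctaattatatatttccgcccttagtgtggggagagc
MSMO1: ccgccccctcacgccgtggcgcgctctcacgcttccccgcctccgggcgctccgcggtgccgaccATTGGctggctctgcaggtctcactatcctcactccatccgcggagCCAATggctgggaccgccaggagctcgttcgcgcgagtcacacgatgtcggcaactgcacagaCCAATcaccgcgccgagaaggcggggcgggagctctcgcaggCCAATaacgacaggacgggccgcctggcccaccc
SC5D: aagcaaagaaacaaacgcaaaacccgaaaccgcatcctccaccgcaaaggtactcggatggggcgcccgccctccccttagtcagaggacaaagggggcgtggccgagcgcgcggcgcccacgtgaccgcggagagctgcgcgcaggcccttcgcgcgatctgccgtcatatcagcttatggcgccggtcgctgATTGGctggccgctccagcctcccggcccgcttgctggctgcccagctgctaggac
SREBF2: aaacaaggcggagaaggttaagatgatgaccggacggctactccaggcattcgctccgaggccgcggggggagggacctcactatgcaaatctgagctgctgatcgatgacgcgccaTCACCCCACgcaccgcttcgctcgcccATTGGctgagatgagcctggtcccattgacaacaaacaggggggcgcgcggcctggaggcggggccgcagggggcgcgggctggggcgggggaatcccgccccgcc
The boxes begin 155 and 100 bases before the start in HMGCS1, 176, 122 and 51 bases before it in FDPS, and 185, 139, 76 and 34 bases before it in MSMO1. SC5D and SREBF2 have 1 box each, 56 and 106 bases before the start.

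Squalene synthase and squalene epoxidase lead from farnesyl diphosphate into the sterol branch. FDFT1, squalene synthase, had 53.3, 85.6 and 103 CPM on gel and 58.8, 59.8 and 45.1 CPM on plastic at 100 nM. At 250 nM, FDFT1 had 81.6, 144 and 142 CPM on gel and 56.7, 67.1 and 74.6 CPM on plastic. Replicate 1 was the lowest gel library at both doses, and the groups overlapped at 100 nM and not at 250 nM. The averaged log2 change was 0.73 ± 0.19 (adjusted p = 0.101 in edgeR).

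SQLE, which encodes squalene epoxidase, a rate-limiting step of the late pathway, separated the substrates. At 100 nM, SQLE had 62.2, 69.6 and 82.4 CPM on gel and 42.8, 44.9 and 45.3 CPM on plastic. At 250 nM, SQLE had 133, 139 and 128 CPM on gel and 72.4, 91.1 and 84.8 CPM on plastic. At neither dose did the gel and plastic libraries overlap. SQLE rose by an averaged log2 change of 0.69 ± 0.12, 1.61-fold, with an adjusted p of 0.0175 in edgeR. The change was 0.69 ± 0.17 at 100 nM and 0.69 ± 0.17 at 250 nM on the log2 scale (SE). The call held in 5 of 12 fits without 1 library and was lost, at adjusted p up to 0.075, without replicate 3 of gel or 2 of plastic at 100 nM, without replicates 2 or 3 of gel at 250 nM, or without any plastic library at 250 nM. It was also lost in limma-trend on log2(TPM + 1) (adjusted p = 0.073).

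Of the enzymes that act on the closed ring, 1 was called. SC5D, a sterol desaturase (ENSG00000109929, chromosome 11, 121292453 to 121308694, plus strand, GRCh38), had 33.7, 39.2 and 44.2 CPM on gel and 18.2, 28.3 and 24.1 CPM on plastic at 100 nM. At 250 nM, SC5D had 43.3, 35.9 and 43.8 CPM on gel and 20.7, 25.4 and 25.5 CPM on plastic. Every gel library was above every plastic library of its dose. SC5D rose by an averaged log2 change of 0.76 ± 0.15, 1.69-fold, with an adjusted p of 0.0392 in edgeR. This call was close to the threshold: it held without replicate 1 of gel at 100 nM or replicate 1 of gel at 250 nM and was lost without any other single library, with adjusted p up to 0.131, and in limma-trend on log2(TPM + 1) (adjusted p = 0.207).

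DHCR7, which reduces 7-dehydrocholesterol to cholesterol, had 14.3, 14.6 and 19.8 CPM on gel and 10.5, 9.76 and 11.1 CPM on plastic at 100 nM. At 250 nM, DHCR7 had 11.2, 15.05 and 20.6 CPM on gel and 7.86, 4.69 and 10.2 CPM on plastic. In CPM no plastic library reached the lowest gel library of its dose. In TPM the substrates overlapped at 250 nM, with 5.23 in plastic replicate 1 and 4.37 in gel replicate 1. The averaged log2 change was 0.83 ± 0.22 with an adjusted p of 0.105 in edgeR.

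EBP, a sterol isomerase, had overlapping substrates. At 100 nM, EBP had 12.5, 7.56 and 11.3 CPM on gel and 12.8, 8.36 and 12.7 CPM on plastic. At 250 nM, EBP had 16.8, 26.2 and 20.6 CPM on gel and 18.2, 12.7 and 14.5 CPM on plastic. The groups overlapped at both doses, and the averaged log2 change was 0.18 ± 0.20 (adjusted p = 0.792 in edgeR).

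Among the other ring enzymes, MSMO1, a methylsterol oxidase, came nearest to a call, with an averaged log2 change of 0.83 ± 0.18 (adjusted p = 0.0597 in edgeR). NSDHL, a sterol dehydrogenase, had 0.74 ± 0.22 (adjusted p = 0.15), and CYP51A1, lanosterol demethylase, had 0.63 ± 0.22 (adjusted p = 0.224). LSS, which closes the ring to lanosterol, had -0.13 ± 0.19 (adjusted p = 0.84), with gel means of 12.6 and 11.7 CPM and plastic means of 14.2 and 12.4 CPM at 100 and 250 nM. TM7SF2, a sterol reductase, and HSD17B7, a sterol ketoreductase, were too low to place, at 0.570 to 8.92 CPM and 0 to 5.83 CPM over the 12 libraries, and HSD17B7 has 2 annotated pseudogenes. Of the exonic bases of CYP51A1, 79.4% are shared with the annotated gene AC000120.2 on the same strand, so the count of CYP51A1 depends on how RSEM divided those reads.

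**Figure D3:**
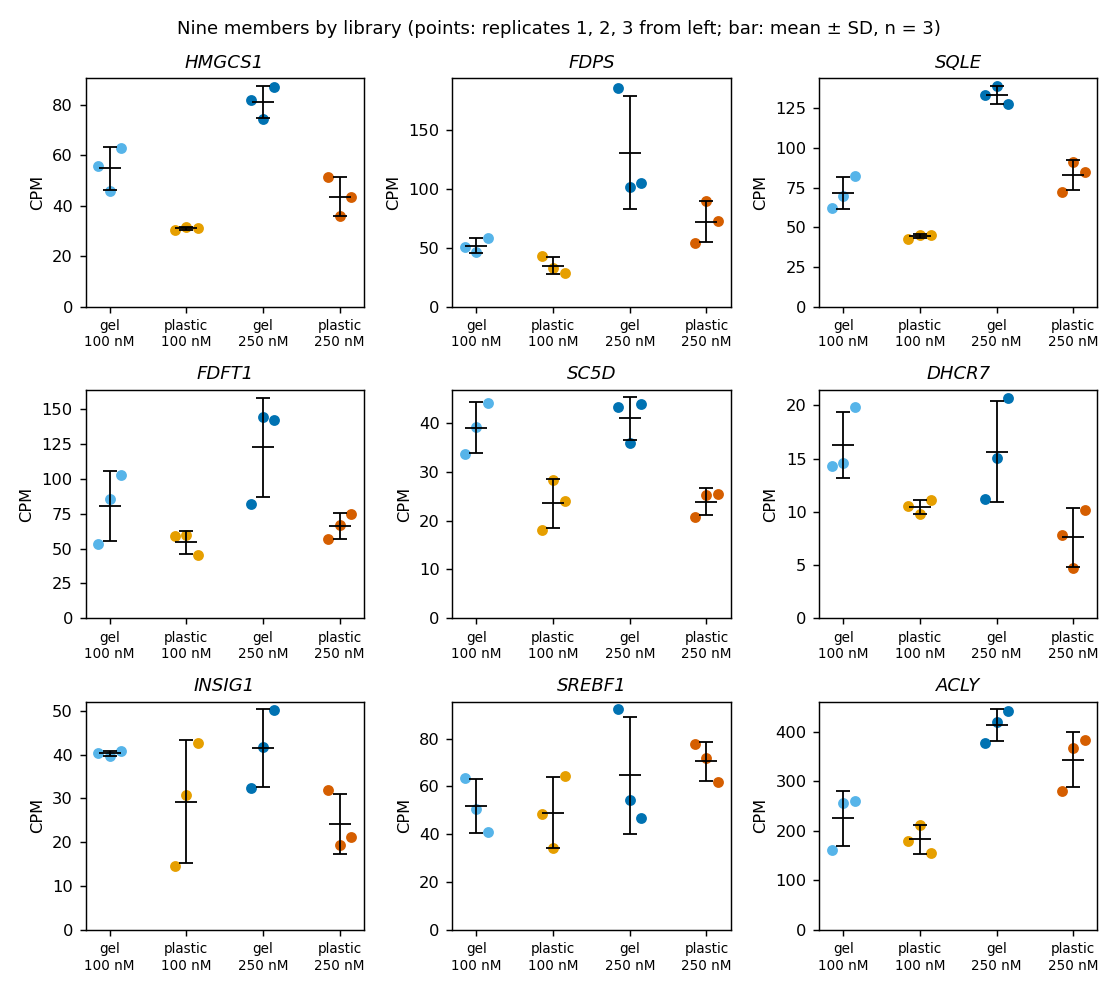
CPM of 9 members in each library (vertical axes from 0) on gel and plastic at 100 and 250 nM; points are replicates 1, 2 and 3 from left, bars the mean ± SD, n = 3. HMGCS1, SQLE and SC5D show gel libraries above plastic libraries at both doses, INSIG1 spreads widely on plastic, and SREBF1 does not order the substrates.

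Of the 5 regulators of SREBP, 0 were called in gel against plastic by edgeR or DESeq2. On average 1, INSIG1, was higher at an unadjusted p under 0.05 in edgeR, beside 5.75% of all genes. Limma-voom called INSIG1 on average, and it called 801 genes there where edgeR called 93. INSIG1, which retains SCAP in the endoplasmic reticulum and is itself a target of SREBP, had 40.3, 39.7 and 40.9 CPM on gel and 14.6, 30.7 and 42.6 CPM on plastic at 100 nM. At 250 nM, INSIG1 had 32.4, 41.8 and 50.2 CPM on gel and 31.9, 19.2 and 21.2 CPM on plastic. In CPM the gel libraries were even at 100 nM while the plastic ones ran from well below them to just above. At 250 nM no plastic library reached the lowest gel library, but 32.4 and 31.9 CPM in replicate 1 nearly met. In TPM these 2 libraries had 12.5 on gel and 17.1 on plastic, so the substrates overlapped. The averaged log2 change was 0.62 ± 0.23 (adjusted p = 0.266 in edgeR).

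SREBF1, the SREBP gene tied mainly to fatty acid synthesis, had 63.5, 50.6 and 41.1 CPM on gel and 48.4, 34.4 and 64.1 CPM on plastic at 100 nM. At 250 nM, SREBF1 had 92.5, 54.4 and 46.8 CPM on gel and 77.8, 71.8 and 61.7 CPM on plastic. The groups overlapped at both doses, with an averaged log2 change of -0.02 ± 0.20 (adjusted p = 0.98 in edgeR). SREBF2, the SREBP gene tied mainly to sterol synthesis, had 15.2, 15.8 and 16.97 CPM on gel and 20.02, 12.4 and 15.4 CPM on plastic at 100 nM. At 250 nM, SREBF2 had 31.1, 9.22 and 26.6 CPM on gel and 16.97, 18.8 and 9.82 CPM on plastic. Its libraries on gel at 250 nM spread across the whole range of the plastic ones, and the averaged log2 change was 0.29 ± 0.26 (adjusted p = 0.72 in edgeR). INSIG2 had -0.29 ± 0.24 and SCAP -0.09 ± 0.25, with adjusted p of 0.691 and 0.93. Over the 5 regulators the median averaged log2 change was -0.02, with 2 positive and 3 negative, and it lay between -0.17 and 0.10 under the alternatives. RNA levels do not show how much SREBP protein was cleaved, which was not measured.

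Of the transfer and efflux genes, STARD4, a cytosolic sterol carrier and known SREBP target, had 16.7, 21.7 and 26.1 CPM on gel and 19.4, 25.6 and 28.02 CPM on plastic at 100 nM. At 250 nM, STARD4 had 13.6, 20.9 and 18.96 CPM on gel and 16.97, 15.5 and 14.5 CPM on plastic. In CPM the groups overlapped at both doses. In TPM gel lay above plastic with no overlap at 250 nM, with 7.16 in gel replicate 3 and 6.7 in plastic replicate 2. The log2 change was -0.17 ± 0.24 at 100 nM and 0.18 ± 0.27 at 250 nM, with an unadjusted p of 0.996 for their mean in edgeR. ABCA1, which exports cholesterol to apolipoprotein, had 38.3, 22.96 and 19.96 CPM on gel and 32.8, 23.5 and 36.7 CPM on plastic at 100 nM. At 250 nM, ABCA1 had 14.5, 21.4 and 22.8 CPM on gel and 21.9, 21.1 and 34.95 CPM on plastic. The ABCA1 groups overlapped at both doses, with an averaged log2 change of -0.31 ± 0.22 (adjusted p = 0.612 in edgeR). ABCG1, the exporter to high-density lipoprotein, had 0 to 9 expected counts per library and was not tested.

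The fatty acid members were positive on average in all 7 cases, except that FADS2 had -0.08 without replicate 1 of gel at 250 nM, with a median averaged log2 change of 0.20, and 0 were called by edgeR or DESeq2. FASN and FADS1, 2 of the 7, were higher on average at an unadjusted p under 0.05 in edgeR, beside 5.75% of all genes. Limma-voom called FASN, and it called 801 genes in this comparison where edgeR called 93. The median was 0.73 for the ring and 0.54 for the mevalonate members, and these medians stayed above 0 in all alternatives run. ACLY, which makes cytosolic acetyl-CoA from citrate, had 162, 256 and 259.6 CPM on gel and 180.4, 212 and 155 CPM on plastic at 100 nM. At 250 nM, ACLY had 379, 420.5 and 443 CPM on gel and 281, 368 and 383 CPM on plastic. In CPM the groups overlapped at both doses. In TPM gel lay above plastic with no overlap at 250 nM, with 84.8 in gel replicate 2 and 81.1 in plastic replicate 3. The averaged log2 change of ACLY was 0.29 ± 0.15 (adjusted p = 0.469 in edgeR). ACACA, acetyl-CoA carboxylase, had 0.14 ± 0.19 (adjusted p = 0.834).

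FASN, fatty acid synthase, had 66.2, 65.8 and 82.4 CPM on gel and 60.7, 36.4 and 60.96 CPM on plastic at 100 nM. At 250 nM, FASN had 95.2, 115 and 104 CPM on gel and 76.2, 71.4 and 78.9 CPM on plastic. In CPM gel lay above plastic with no overlap at both doses. In TPM the substrates overlapped at 100 nM, with 7.92 in gel replicate 1 and 8.39 in plastic replicate 1. The averaged log2 change was 0.45 ± 0.15 (adjusted p = 0.193 in edgeR). SCD, stearoyl-CoA desaturase, had 49.5, 85.6 and 85.6 CPM on gel and 59.6, 59.9 and 116 CPM on plastic at 100 nM. At 250 nM, SCD had 100.1, 125 and 131 CPM on gel and 95.6, 99.5 and 93.1 CPM on plastic. One high plastic library lay above all gel libraries at 100 nM, while at 250 nM gel lay just above plastic, and the averaged log2 change was 0.10 ± 0.20 (adjusted p = 0.889 in edgeR).

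FADS1, a desaturase of polyunsaturated fatty acids, had 112, 66.95 and 66.2 CPM on gel and 47.9, 46.6 and 69.4 CPM on plastic at 100 nM. At 250 nM, FADS1 had 151, 118 and 116 CPM on gel and 103, 86.8 and 100.1 CPM on plastic. Replicate 1 was the highest gel library at both doses, and in CPM the groups overlapped at 100 nM and not at 250 nM. In TPM they overlapped at 250 nM too, with 23.5 in gel replicate 2 and 24.9 in plastic replicate 1. The averaged log2 change was 0.49 ± 0.17 (adjusted p = 0.218 in edgeR). Its neighbour FADS2, a further desaturase on the opposite strand that shares 490 exonic bases with it, had a log2 change of -0.67 ± 0.32 at 100 nM and 0.86 ± 0.36 at 250 nM, and the difference of 1.53 ± 0.49 had an unadjusted p of 0.00721 and an adjusted p of 0.75 in edgeR. ELOVL6, which lengthens palmitate, had 52.97, 40.3 and 60.7 CPM on gel and 36.96, 40.1 and 43.1 CPM on plastic at 100 nM. At 250 nM, ELOVL6 had 31.4, 32.05 and 34.98 CPM on gel and 29.4, 37.6 and 29.4 CPM on plastic. In CPM the groups overlapped at both doses. In TPM gel lay above plastic with no overlap at 100 nM, with 7.95 in gel replicate 2 and 6.94 in plastic replicate 3. The averaged log2 change of ELOVL6 was 0.19 ± 0.14 (adjusted p = 0.636 in edgeR).

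Whether the substrate difference itself changed with dose was tested as an interaction. Of all genes 0 were called by edgeR (0.00%), and 0 members were called by edgeR or DESeq2. At an unadjusted p under 0.05, MVK, PMVK, MVD and FADS2 had a larger gel-over-plastic change at 250 nM, 4 of 32 members, beside 4.19% of all genes, and 0 members had a smaller one, beside 2.13%. For MVK, PMVK and FADS2, replicate 1 was the highest library both of plastic at 100 nM and of gel at 250 nM. These are the libraries with the low rDNA shares of 14.3% and 13.2%. All 7 mevalonate members had a positive difference, with a median of 0.40 on the log2 scale, which lay at 0.23 with plastic replicate 1 of 250 nM left out and at 0.60 with the library that stands apart left out. The 7 fatty acid members had a median of -0.04, which lay between -0.19 and 0.07 under the alternatives. The median SE of a member in this test was 0.40.

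**Figure D4:**
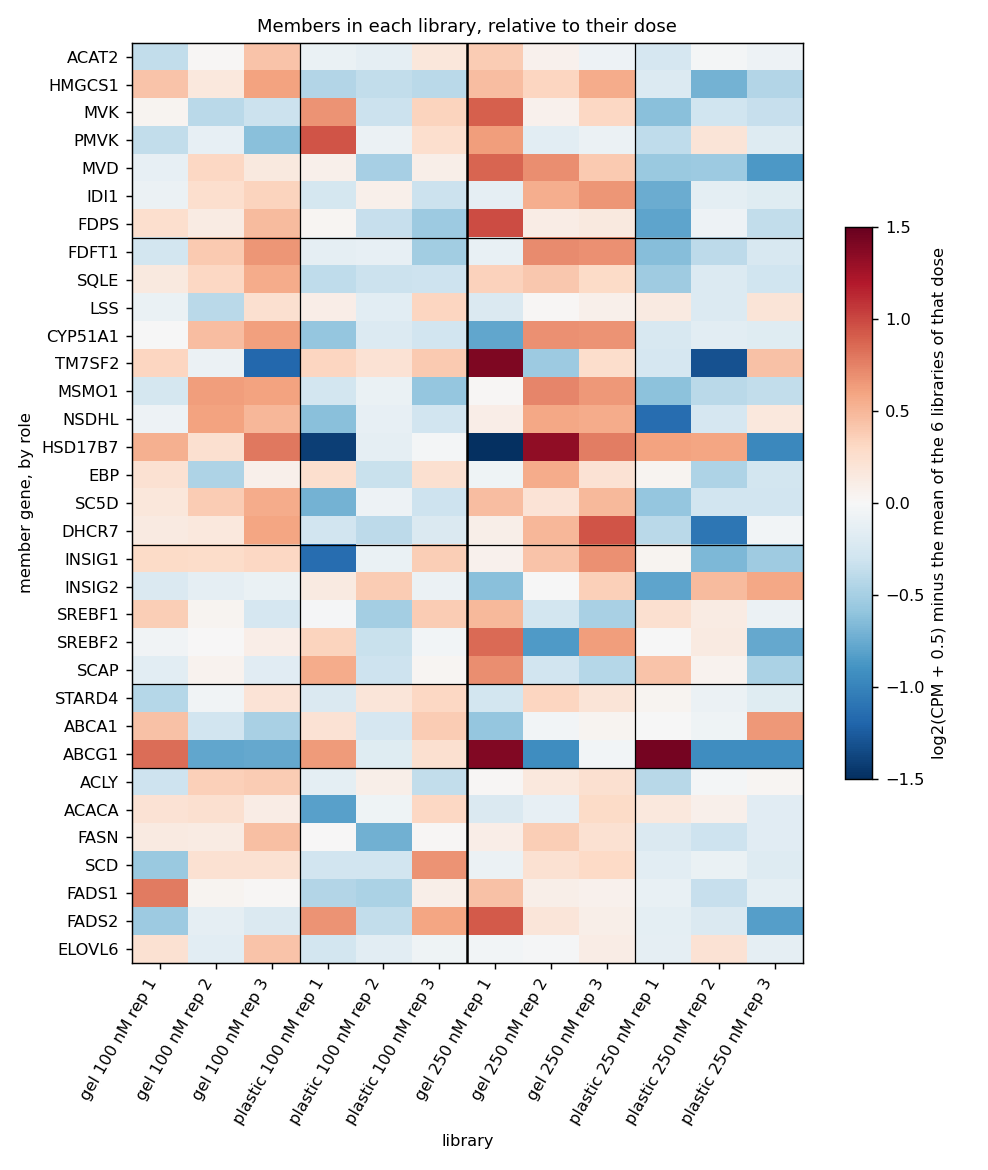
Log2(CPM + 0.5) of each member (rows, by role) in each of the 12 libraries (columns), less the mean of the 6 libraries of the same dose; red is higher and blue lower, on a scale from -1.5 to 1.5. The mevalonate and sterol ring rows are mostly red in the gel columns, except in gel at 100 nM replicate 1. There rows such as ACAT2, FDFT1 and MSMO1 are blue. The column of gel at 250 nM replicate 1 departs from its group in rows such as CYP51A1 and MVK.

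In the library that stands apart, single members differed from their group in both directions. In replicate 1 of gel at 250 nM, CYP51A1 had 44.9 CPM, against 125 and 125 CPM in the other gel libraries of that dose, and HSD17B7 had 0 CPM, against 5.83 and 3.79 CPM. In the same library FDPS had 186 CPM, against 102 and 104 CPM, and MVK had 21.2 CPM, against 11.6 and 13.9 CPM. Without this library the averaged comparison called 237 genes in place of 93, and 8 members, all up: HMGCS1, IDI1, FDFT1, SQLE, CYP51A1, MSMO1, SC5D and DHCR7. CYP51A1 then had an averaged log2 change of 0.80 ± 0.13 (SE, adjusted p = 0.00901 in edgeR), and MSMO1 had 0.92 ± 0.16 (adjusted p = 0.0151). Without replicate 1 of gel at 100 nM the same comparison called 5 members and 92 genes, and without replicate 1 of plastic at 100 nM it called 2 members and 64 genes. It called 1 member, HMGCS1, and 37 to 65 genes without replicate 3 of gel or 2 of plastic at 100 nM, replicates 2 or 3 of gel at 250 nM, or any of the plastic libraries at 250 nM.

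Between the doses, 7 members rose on gel at 250 nM against 100 nM and 1 fell, and 4 rose on plastic. Of all genes 6.91% were called up and 6.90% down on gel, and 4.04% up and 4.48% down on plastic, beside 7 of 32 members up and 1 down on gel and 4 of 32 up and 0 down on plastic. These comparisons set 1 library set against another, with less depth at 250 nM, so they are differences between sets of libraries as much as between doses.

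On gel, ACAT2 averaged 178 ± 29.3 CPM at 250 nM and 65.6 ± 18.1 CPM at 100 nM (SD, n = 3 each), a log2 change of 1.44 ± 0.22 (SE, adjusted p = 0.00385 in edgeR). On plastic, ACAT2 averaged 149 ± 12.2 CPM at 250 nM and 62.1 ± 7.42 CPM at 100 nM, a change of 1.26 ± 0.22 (adjusted p = 0.00672). All 6 libraries at 250 nM lay above all 6 at 100 nM. FDPS rose by 1.34 ± 0.27 on gel (adjusted p = 0.00859) and by 1.04 ± 0.27 on plastic (adjusted p = 0.0319). SQLE rose by 0.90 ± 0.17 on gel (adjusted p = 0.00735) and by 0.90 ± 0.17 on plastic (adjusted p = 0.0102). ACLY rose by 0.87 ± 0.22 on gel (adjusted p = 0.0204) and by 0.91 ± 0.22 on plastic (adjusted p = 0.0234). These are the 4 members called on both substrates. Without replicate 1 of gel at 250 nM the change of FDPS on gel was 0.97 on the log2 scale.

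MVK, MVD and EBP were called on gel and not on plastic. MVK rose by 1.499 ± 0.34 on gel (adjusted p = 0.0151 in edgeR) and had a change of 0.02 ± 0.35 on plastic. MVD rose by 1.32 ± 0.29 on gel (adjusted p = 0.0121 in edgeR) and had 0.18 ± 0.31 on plastic. EBP rose by 1.02 ± 0.29 on gel (adjusted p = 0.0336 in edgeR) and had 0.42 ± 0.29 on plastic. The difference between the substrates is the interaction test, in which none of the 3 was called. ELOVL6 fell by 0.65 ± 0.20 on gel on the log2 scale (adjusted p = 0.0488 in edgeR) and had -0.32 ± 0.20 on plastic (adjusted p = 0.345). At 250 nM ELOVL6 averaged 32.8 ± 1.91 CPM on gel, and at 100 nM 51.3 ± 10.3 CPM.

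Several of these dose calls rested on single libraries. On plastic, where 1050 genes were called with all libraries, 0 members and 95 genes were called without replicate 2 of plastic at 250 nM, and 1 member, ACAT2, and 102 genes without replicate 3 of that group. FDPS was also lost on plastic without replicates 2 or 3 of plastic at 100 nM, and ACLY without replicates 1 or 3 of that group. On gel, where 1703 genes were called with all libraries, 1248 genes and 5 members were called without replicate 3 of gel at 250 nM, ACAT2, MVK, MVD, FDPS and SQLE. ELOVL6 was called in 2 of 12 fits without 1 library and EBP in 5 of 12. MVK was lost without replicate 2 of gel at 100 nM (adjusted p = 0.0551). ACLY was lost on gel without replicate 1 of gel at 100 nM or 3 of gel at 250 nM, with adjusted p up to 0.0675. With the trend on transcript GC content removed, an alternative chosen after seeing the data, EBP (adjusted p = 0.0714) and ELOVL6 (adjusted p = 0.148) were no longer called on gel.

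**Figure D5:**
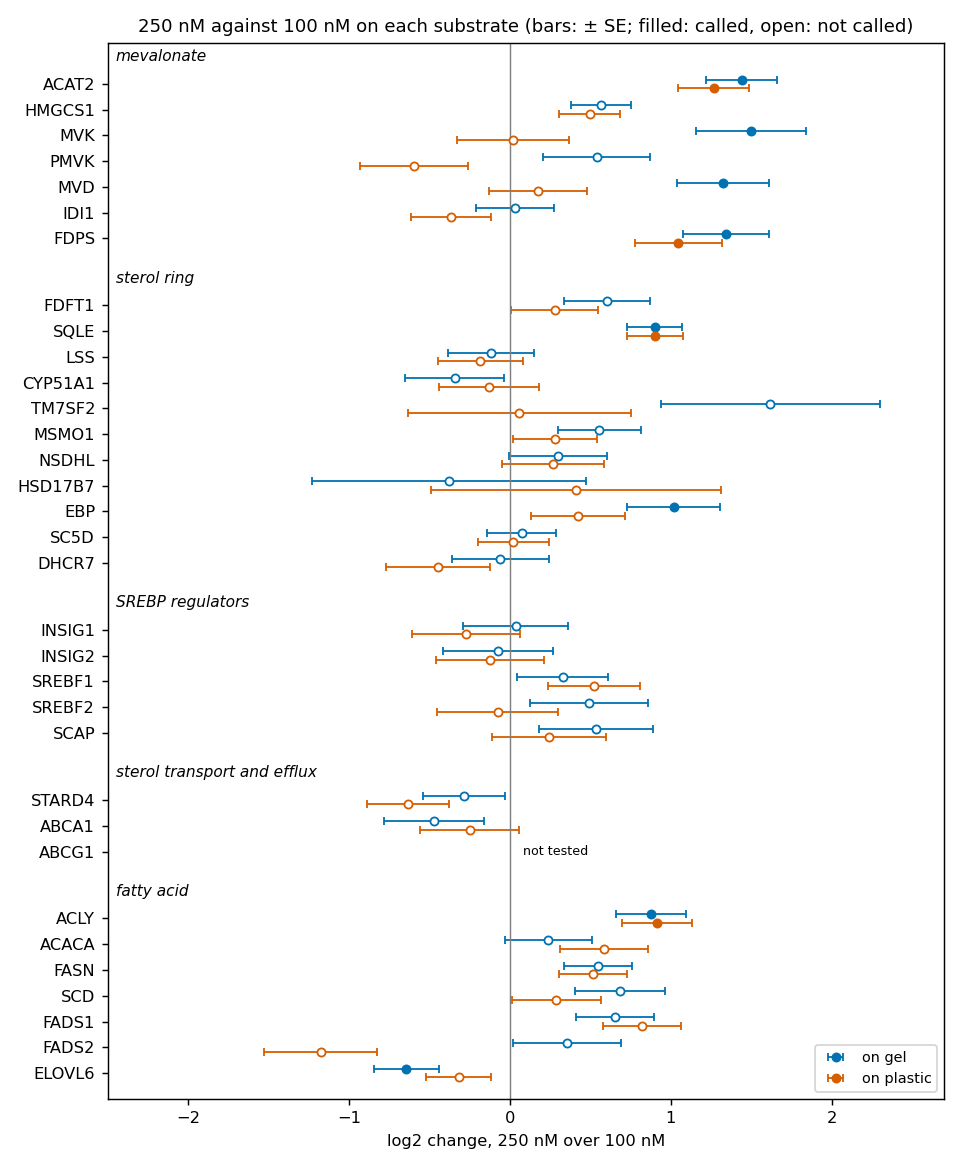
Log2 change of 250 nM over 100 nM for each member on gel (blue) and on plastic (orange), with bars of ± SE; filled points were called by edgeR and open points were not, and ABCG1 was not tested. ACAT2, FDPS, SQLE and ACLY are filled on both substrates; MVK, MVD, EBP and ELOVL6 are filled on gel alone.

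Outside the members, 44 other genes were followed as a wider list, of which 40 were tested. The list covers lipid synthesis, uptake, storage and breakdown, dolichol and ubiquinone synthesis, and regulators such as SREBP-cleaving proteases and LXR receptors. In gel against plastic 0 were called by edgeR at either dose or on average, and on average 2 were higher and 1 was lower at an unadjusted p under 0.05, beside 5.75% and 6.76% of all genes, with 21 of 40 positive, beside 49.3% of all genes, and a median averaged log2 change of 0.04. At 250 nM against 100 nM, ACAT1, the mitochondrial thiolase of ketone and isoleucine breakdown, fell by 1.70 ± 0.22 on gel (adjusted p = 0.00198 in edgeR) and by 2.00 ± 0.22 on plastic (adjusted p = 0.000834). ACAT1 averaged 10.4 ± 0.208 CPM on gel and 9.79 ± 1.49 CPM on plastic at 250 nM, and 34.0 ± 5.53 CPM on gel and 39.1 ± 2.38 CPM on plastic at 100 nM (SD, n = 3 each). SLC25A1, the mitochondrial citrate carrier, fell by 1.4 ± 0.232 on plastic (adjusted p = 0.00559 in edgeR). NCEH1, a cholesteryl ester hydrolase, fell by 1.59 ± 0.37 on gel (adjusted p = 0.0166 in edgeR), and ACSL4, an acyl-CoA synthetase, fell by 0.89 ± 0.23 on gel (adjusted p = 0.0217 in edgeR). On the other substrate the means were lower at 250 nM too, and these changes were not called. On plastic NCEH1 averaged 48.6 CPM against 77.9 at 100 nM, and ACSL4 82.1 against 126.8. On gel SLC25A1 averaged 19.9 CPM against 32.4. In the dose comparisons the wider list had 0 of 40 called up and 3 called down on gel, beside 6.91% and 6.90% of all genes, and 0 called up and 2 called down on plastic, beside 4.04% and 4.48%.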

How the data were processed

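Gene tables of 12 libraries were analysed. Per the submitters' processing notes, the build was GRCh38 and the tools named are STAR, RSEM, Trimmomatic and DESeq2 1.36.0. For the other versions, the annotation release, the strand setting and any use of molecular identifiers, nothing is given in the sources used here. The authors deposited expected counts per gene, as RSEM's columns name them per the file headers, and these were rounded to whole numbers. The TPM values were deposited beside them and are scaled for transcript length and library total, per the file headers; they were used for levels between genes and in 2 alternatives.

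Counts were fitted in R 4.3.3 with edgeR 4.0.16, using filterByExpr on the 4 groups, TMM scaling and the quasi-likelihood F test with a mean for each group, which left 8 residual degrees of freedom. Benjamini-Hochberg adjustment ran over the 12329 genes tested, with calls under 0.05, in each of 6 comparisons. These were gel against plastic at each dose, the mean of both, their difference, and 250 against 100 nM on each substrate. CPM uses the effective library size, log2 changes are edgeR's, and each SE is the log2 change over the square root of its F, left out for changes under 0.001. The common biological coefficient of variation was 0.299, and counting error is larger at 250 nM, where totals were lower.

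The members and lists were chosen with earlier results of these data known. Values in every library are given for members called in any comparison, for the member of each role with the highest mean TPM or the largest averaged change among those with a mean CPM of at least 5, and for INSIG1, SREBF1, SREBF2, ABCA1, SCD and FASN. MSMO1, CYP51A1 and HSD17B7 are shown in part, chosen after their values were seen. Of 61541 identifiers, 61369 matched the name table and 58366 were found in GENCODE 29, which gave loci and overlaps. Promoter windows came from RefSeq on GRCh38.p14. Replicate numbers were not used to pair the libraries in the main fit. Tests were checked on simulated counts. Alternatives used limma 3.58.1 and DESeq2 1.42.0, other size factors and filters, thinned counts, fewer libraries and, added after seeing the data, a robust estimate of the spread and removal of a GC trend.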

Additional observations from a re-analysis of the deposited data

How the results depend on the processing

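The averaged comparison called 3 members and 93 genes. Members called were 8 with no filter, 8 in DESeq2, 13 by limma-voom with weights per library, 9 without replicate 1 of both gel groups, and 0 with limma-trend on log2(TPM + 1) or log2(TPM + 0.1). Genes called were 573, 385, 801, 311, 53 and 44 in that order. With 1 library left out, members ranged from 1 to 8 and genes from 37 to 237.

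At 100 nM, gel against plastic called 0 members and 28 genes. DESeq2 called 2 members and 158 genes, limma-voom 5 and 447, and the fit without replicate 1 of both gel groups 3 and 88. Genes called were 335 with no filter, 7 and 9 with limma-trend on log2(TPM + 1) and log2(TPM + 0.1), 5 with only the 2 groups compared, and 15 with the 100 nM counts thinned to the depth of the 250 nM libraries. With 1 library left out, members ranged from 0 to 1 and genes from 3 to 100.

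At 250 nM, gel against plastic called 0 members and 1 gene. No filter gave 1 member (MSMO1) and 231 genes, DESeq2 3 and 93, limma-voom 8 and 161, and the fit without replicate 1 of both gel groups 1 (MSMO1) and 6. Genes called were 2 with upper-quartile size factors, 3 and 4 with limma-trend on log2(TPM + 1) and log2(TPM + 0.1), 0 with only the 2 groups compared, and 5 with the GC trend removed. With 1 library left out, members ranged from 0 to 0 and genes from 1 to 2. The difference between the doses called 0 members throughout, and 129 genes with no filter where the main count was 0, and from 0 to 0 genes with 1 library left out.

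For 250 against 100 nM on gel, with 8 members and 1703 genes, limma-voom called 14 members and 2925 genes, the fit of only the 2 groups 4 and 525, and the fit without replicate 1 of both gel groups 742 genes. With 1 library left out, members ranged from 5 to 8 and genes from 676 to 1843. On plastic, with 4 members and 1050 genes, limma-voom called 9 and 3173, the fit without replicate 1 of both gel groups 7 and 2540, limma-trend on log2(TPM + 0.1) 2 and 594, and on log2(TPM + 1) 2 members. DESeq2 called 1667 genes and the fit of only the 2 groups 1655. With 1 library left out, members ranged from 0 to 6 and genes from 95 to 2202.

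Whether the replicate numbers pair the libraries is not known, and the main fit did not use them. Same-numbered libraries of different groups had correlations of deviations from -0.236 to 0.323, over 0.1 in 8 of 18 pairs. Other pairs had -0.301 to 0.39, over 0.1 in 9 of 36. Each deviation was taken from the mean of a group of 3 libraries, which ties the correlations together, so they cannot decide the pairing. With the replicate number as a block, the averaged comparison called 4 members, HMGCS1, SQLE, MSMO1 and SC5D, and 105 genes, and 2 genes were called at 250 nM.

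The cause of these shifts was not tested. For the 20 members with values in every library, 3200 changes under alternatives were compared with the main fit. Of these, 3061 stayed on their side of the threshold, most of them uncalled in both fits, 63 gained and 76 lost the call. Losses could come only from the main calls, 3 averaged, 8 between doses on gel and 4 on plastic, and are a larger share of those. Where called 0 changed sign. Of those not called 138 had the other sign, none with a main log2 change above 0.473 in either direction. The median SE of a member's log2 change was 0.20 in the averaged comparison and 0.28 within each dose.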
